A study of Danio rerio with 8 samples.

Results

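Glycolysis splits glucose into pyruvate in the cytosol, and lactate dehydrogenase turns pyruvate into lactate, which leaves the cell through monocarboxylate transporters together with protons. Flow through the pathway is set mainly at hexokinase, phosphofructokinase and pyruvate kinase, and phosphofructokinase is strongly activated by fructose 2,6-bisphosphate, which the enzymes of the PFKFB family make and break down. The corneal epithelium of vertebrates is known to use glucose largely through glycolysis. Zebrafish carry duplicate copies (a and b) of many of these genes, so that 1 enzymatic step is often encoded by several copies.

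The genes described here are 41 listed zebrafish glycolysis and lactate genes, given by symbol, from glucose transporters to the kinases that shut off pyruvate dehydrogenase. Of these, 39 were each assigned 1 identifier among the 32520 genes of the count table. Of the steps of the pathway, 13 had more than 1 assigned copy. For 18 genes in 9 pairs the name table gives both copies the same human-style symbol, so that the a and b copies could not be told apart and are given as the symbol with the Ensembl identifier. RefSeq also lists a further gene, slc2a1c, which could be either of the SLC2A1 identifiers. The symbol of slc16a1a is shared by 2 identifiers, which are described apart and not counted, and no identifier was assigned to pgk1. A single phosphoglycerate kinase identifier is listed as PGK2, and it was kept among the other genes of the pathway. RefSeq lists only 1 gene whose symbol starts with pgk, so this identifier may be pgk1 itself.

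RNA was sequenced from corneas of adult wild-type zebrafish of the AB background. In 4 control libraries the fish had been anesthetized and laid on a sponge, and in 4 wounded libraries both corneas had been abraded and the fish had recovered for 1.5 h. Each library pooled 6 corneas of 3 fish. Replicate numbers mark fish of 1 age from 1 tank (180 days for replicate 1, 145 for 2, 148 for 3 and 183 for 4), so that age and tank cannot be told apart. The study left out wounded 1 after a principal component analysis. The comparison therefore used control 1 to 4 and wounded 2 to 4, and the values of wounded 1 are given apart.

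The libraries held 39472162 to 44250662 counts. Values are CPM (read counts scaled to a common library size after TMM normalization), and they are not corrected for gene length. Epithelial markers were abundant, with a summed level of 66330 to 69340 CPM in the controls, 63510 to 67310 in wounded 2 to 4 and 45330 in wounded 1. Of 7 lens markers, 3 had no read in any library, and their sum stayed at or below 0.188 CPM. All 14 skeletal muscle markers matched passed the filter on low counts, and they summed to 631.3 to 1471 CPM in the controls and 810.9 to 940.5 in wounded 2 to 4. In pooled tissue, fewer cells of a type and less RNA per cell cannot be told apart.

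The first question was which copy supplied most of the reads at each step in the unwounded cornea. These are shares of reads within a library among the listed copies of a step only, uncorrected for transcript length, and they describe counts, not transcript numbers. The same copy held the most reads in all 4 control libraries at 11 of the 13 steps with several copies, and at 9 of these it did so in wounded 2 to 4 as well. At 6 of the 13 steps the leading copy held over 75% of the reads in every control library. The remaining steps were divided between copies.

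Glucose uptake was led by 1 copy. The glucose transporter copy SLC2A1 ENSDARG00000007412 (GLUT1, the basal glucose carrier of many cells) held 94.3 to 95.6% of the reads of the 3 listed transporters in the controls. It measured 58.2, 73.7, 81.4 and 76.8 CPM in control 1 to 4, and 67.6, 82.9 and 74.6 in wounded 2 to 4, with 59.3 in wounded 1. The groups overlapped. The other SLC2A1 copy, ENSDARG00000001437, stayed at or below 0.530 CPM in the 7 compared libraries and reached 1.998 CPM in wounded 1. The neuronal-type carrier slc2a3a lay between 2.58 and 4.39 CPM in the 7 compared libraries.

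Hexokinase, which traps glucose in the cell as glucose 6-phosphate, was divided between hk2 and hk1. The hk2 share of hexokinase reads was 70.6, 52.2, 72.1 and 65.5% in control 1 to 4. In wounded 2 to 4 it was 58.1, 56.5 and 46.4%, and in wounded 1 46.7%, so that hk1 led in wounded 4 and wounded 1. The glucokinase gene gck, known from liver and pancreas, was at or near 0 (at most 0.242 CPM).

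The isomerase copy GPI ENSDARG00000012987 held 91.8 to 95.0% of the reads of its step in the controls, at 93.8 to 112 CPM in the controls and 87.9 to 97.6 in wounded 2 to 4. Phosphofructokinase had 6 copies. Among them pfkpa, the platelet-type enzyme, led with 44.4 to 51.8% of the reads in the controls, followed by PFKL ENSDARG00000099755, a liver-type copy, with 19.1 to 26.1%. The remaining 4 copies each held at most 12.9% in any control library. The aldolase step was led by ALDOA ENSDARG00000011665, with 60.8 to 72.3% of the reads of the 4 listed copies, and ALDOC ENSDARG00000019702 held 24.8 to 36.8%.

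In the later steps of the pathway, where ATP and NADH are made, single copies led most steps. TPI1 ENSDARG00000040988 held 99.7 to 99.9% of triosephosphate isomerase reads. The dehydrogenase gapdhs, whose mammalian counterpart is known from sperm, held 77.0 to 86.8%, ahead of gapdh. Enolase reads came mainly from eno3, the copy named for the muscle enolase of mammals, with 63.6 to 70.7% in the controls and 60.4 to 62.4% in wounded 2 to 4. Its share was lower in every one of these wounded libraries than in any control library, and eno1a held 27.6 to 33.1% in the controls and 34.8 to 35.8% in wounded 2 to 4. These shares were not tested. PKM ENSDARG00000099730 held 95.0 to 98.2% of pyruvate kinase reads. Phosphoglycerate mutase was the most evenly divided step in the controls, with 52.4 to 57.7% for pgam1a and the rest for pgam1b.

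Lactate dehydrogenase interconverts pyruvate and lactate. The copy ldhba, named for the heart-type subunit, held 77.3 to 83.8% in the controls, and ldha, named for the muscle-type subunit, held 16.2 to 22.7%. The lactate exporter slc16a3 (MCT4) and the transporter copies of SLC16A1 (MCT1) are described with the abrasion values below. The pyruvate dehydrogenase kinases, which phosphorylate and switch off pyruvate dehydrogenase, had no constant leading copy. PDK2 ENSDARG00000059054 held 75.8, 49.9, 77.6 and 27.3% in control 1 to 4, and PDK2 ENSDARG00000020876 led in control 4.

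**Figure D1:**
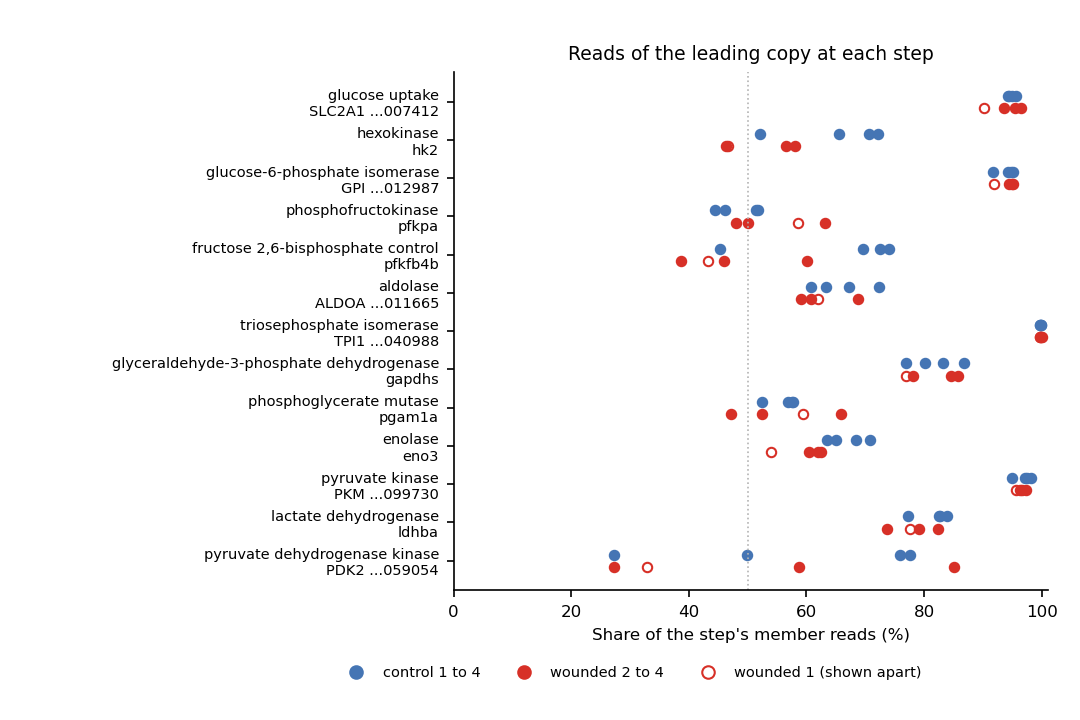
Share of the reads of each step (horizontal axis, %) held by its leading copy, 1 point per library, for the 13 steps with several assigned copies; blue points are the controls, filled red points wounded 2 to 4 and the open red point wounded 1, and the dotted line marks an equal share with all other copies. Isomerase, transporter and pyruvate kinase steps sit above 90%, whereas hexokinase, fructose 2,6-bisphosphate control and the pyruvate dehydrogenase kinases spread widely between libraries.

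The comparison of wounded with control corneas asked which of these genes had changed 1.5 h after abrasion. The fructose 2,6-bisphosphate enzyme gene pfkfb3 rose, and no other gene of the set passed the test in the unblocked fit. Of the 39 assigned genes, 36 passed the filter on low counts, and 1 was higher and 0 were lower at an adjusted p of 0.05 (edgeR's quasi-likelihood test, Benjamini-Hochberg adjustment over 18935 genes). Over all genes tested, 1.37% were called, 0.734% as higher and 0.634% as lower. At an unadjusted p of 0.05, 4 of the 36 (11.1%) were below the threshold, against 18.5% of all genes. The median log2 fold change of the 36 was 0.00, with 18 above 0, and the median over all genes tested was 0.01. For 31 of the 36 the log2 fold change lay within 0.5 of 0, and their median standard error was 0.22. When the fit took the replicate number, and so the tank, into account, 2 of the 36 were called, both higher, against 5.22% of all genes called and 2.71% called higher. With wounded 1 left out, control 1 is alone in its block and adds nothing to the blocked estimate. That fit therefore in effect compares wounded 2 to 4 with control 2 to 4. DESeq2 called 2 of 35 without the replicate block (9.29% of all genes) and 5 of 34 with it (12.1%).

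The enzyme encoded by pfkfb3 makes fructose 2,6-bisphosphate and is known for its high kinase activity. It measured 27.8, 56.3, 29.9 and 41.2 CPM in control 1 to 4, and 112, 128 and 71.9 CPM in wounded 2 to 4, with 122 CPM in wounded 1. All wounded libraries lay above all controls, with wounded 4 the lowest of them and control 2 the highest control. The log2 fold change was 1.42 ± 0.26 (SE), with an adjusted p of 0.0347 in edgeR, and means of 38.8 ± 13.1 CPM (SD, n = 4) and 103.9 ± 28.9 (SD, n = 3). The call was lost in edgeR without control 1 (adjusted p = 0.094), control 3 (0.111), wounded 2 (0.0718) or wounded 3 (0.145). The log2 fold changes ran from 1.25 to 1.65 over the 7 libraries left out in turn. Over all genes, those same fits called 20, 14, 72 and 10 genes higher, against 139 with all 7 libraries. The adjusted p of pfkfb3 was 0.0153 with all 8 libraries and 0.018 with the replicate block (edgeR), and 6.91e-06 in DESeq2. Of its 16 alternatives, 12 passed.

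The paralog pfkfb4b measured 78.8, 46.5, 78.5 and 94.4 CPM in control 1 to 4, and 70.3, 108.9 and 108.5 CPM in wounded 2 to 4, with 92.8 in wounded 1. The groups overlapped, and the log2 fold change of 0.36 ± 0.23 (SE) did not pass (adjusted p = 0.438, edgeR). The share of pfkfb3 in the reads of these 2 genes was 26.0, 54.7, 27.6 and 30.4% in control 1 to 4. It was 61.4, 54.0 and 39.9% in wounded 2 to 4 and 56.8% in wounded 1, so that pfkfb3 led in wounded 1, 2 and 3 and in control 2. Control 2 was the lowest of the controls for pfkfb4b and the highest for pfkfb3.

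Lactate leaves highly glycolytic cells through slc16a3, the low-affinity carrier MCT4. It measured 81.8, 47.7, 49.6 and 56.6 CPM in control 1 to 4, and 95.0, 161.9 and 82.8 CPM in wounded 2 to 4, with 126 CPM in wounded 1. All wounded libraries lay above all controls, but wounded 4 was only just above control 1. The log2 fold change was 0.94 ± 0.25 (SE) and did not pass in the unblocked fit (adjusted p = 0.086, edgeR). With the replicate block, which leaves control 1, the highest control, out of the estimate, it did. The log2 fold change was then 1.08 and the adjusted p 0.0203. With all 8 libraries the adjusted p was 0.028 with the block and 0.06 without it (edgeR). In DESeq2 without the block the adjusted p was 0.00592. Over its 16 alternatives the adjusted p ranged from 1.67e-06 to 0.274, and 5 of them passed. A second identifier with this symbol, SLC16A3 ENSDARG00000028583, was kept among the other lactate enzymes and carriers. Of the 10 genes of that list 9 were tested in the unblocked fit, with log2 fold changes from -0.67 to 0.43. Their median standard error was 0.54. None was called after abrasion in edgeR, with or without the block. DESeq2 gave an adjusted p to only 3 genes of the list, with or without the block, and called none.

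The 2 SLC16A1 copies, either of which may be slc16a1a, did not pass. SLC16A1 ENSDARG00000068572 measured 30.4, 32.0, 33.7 and 32.2 CPM in control 1 to 4, and 23.8, 28.1 and 28.8 CPM in wounded 2 to 4, with 18.3 CPM in wounded 1. All wounded libraries were below all controls. The log2 fold change of -0.25 ± 0.13 (SE) did not pass (adjusted p = 0.336, edgeR). The other copy, SLC16A1 ENSDARG00000016963, lay between 1.29 and 2.88 CPM.

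Of the 36 tested genes, 2 (pfkfb3 and slc16a3) had all of wounded 2 to 4 above all controls, and 0 had them all below. Over all genes tested, 17.6% did not overlap, 8.16% above and 9.45% below.

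The hexokinase hk2, the insulin-responsive enzyme of muscle and fat in mammals, had the largest negative log2 fold change of the 36 tested genes. It measured 152, 62.3, 160.7 and 139.7 CPM in control 1 to 4, and 64.1, 98.4 and 74.5 CPM in wounded 2 to 4, with 60.1 CPM in wounded 1. Control 2 was below all of wounded 2 to 4, and the other 3 controls were above every wounded library. The log2 fold change was -0.70 ± 0.29 (SE), with an unadjusted p of 0.0328 and an adjusted p of 0.224 in edgeR. Without control 2 it was -0.94 and passed (adjusted p = 0.03). The partner hk1 measured 57.1 to 73.6 CPM in the controls and 46.0 to 86.1 in wounded 2 to 4.

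**Figure D2:**
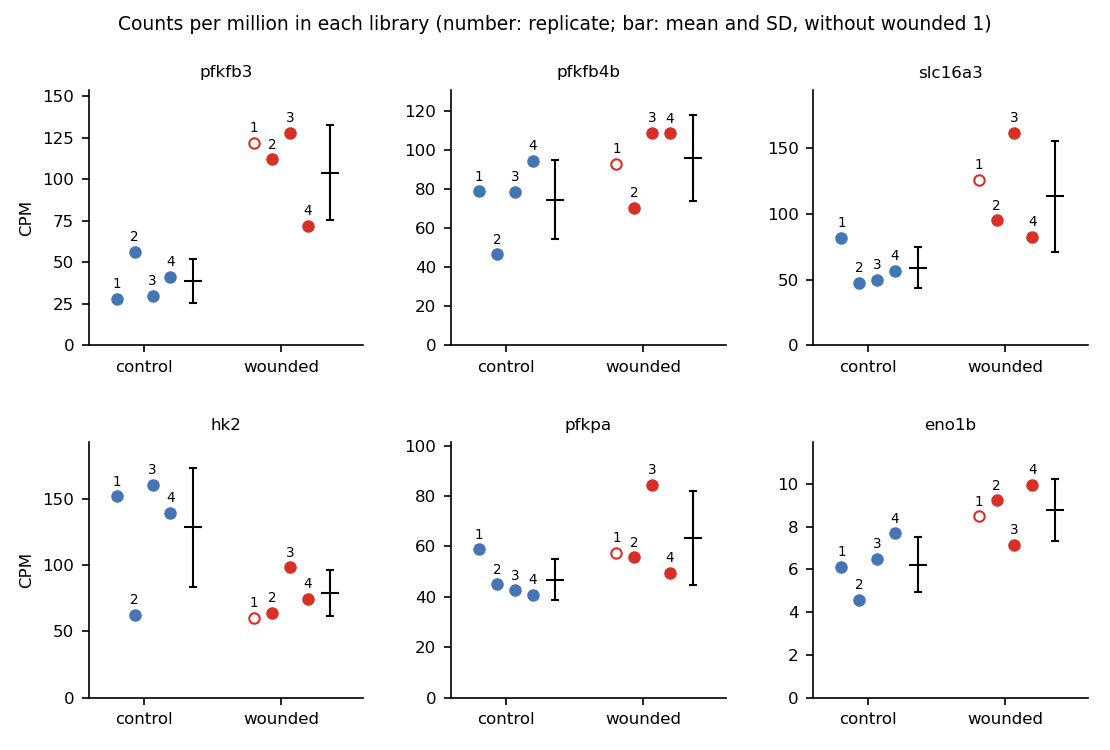
CPM (vertical axis, starting at 0) of 6 genes in each library; points carry the replicate number, the open point is wounded 1, and the bars show the mean and SD of control 1 to 4 and of wounded 2 to 4. For pfkfb3 and slc16a3 all wounded points lie above all control points, whereas for hk2 control 2, at 62.3 CPM, lies among the wounded libraries.

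At phosphofructokinase, the leading copy pfkpa measured 58.9, 45.0, 42.6 and 40.9 CPM in control 1 to 4, and 55.8, 84.5 and 49.5 CPM in wounded 2 to 4, with 57.4 CPM in wounded 1. Wounded 3 stood highest and control 1 overlapped the other wounded libraries. The log2 fold change was 0.43 ± 0.20 (SE), with an adjusted p of 0.28 in edgeR. The second platelet-type copy, pfkpb, measured 5.85, 12.6, 10.9 and 7.90 CPM in control 1 to 4, and 15.3, 15.2 and 8.77 CPM in wounded 2 to 4 (log2 fold change 0.49 ± 0.28, SE). It did not pass (adjusted p = 0.389, edgeR).

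None of the enolase copies passed the test. The low copy eno1b measured 6.13, 4.57, 6.49 and 7.69 CPM in control 1 to 4, and 9.23, 7.14 and 9.96 CPM in wounded 2 to 4, with a log2 fold change of 0.50 ± 0.22 (SE) and an adjusted p of 0.25 in edgeR. The more abundant eno1a lay at 110.7 to 149.7 CPM in the controls and 133.7 to 163.3 CPM in wounded 2 to 4, and its log2 fold change of 0.21 did not pass (adjusted p = 0.444, edgeR). The leading copy eno3 measured 298, 317, 267 and 228 CPM in control 1 to 4, and 286, 252 and 226 CPM in wounded 2 to 4, with 152 CPM in wounded 1. Its log2 fold change of -0.12 ± 0.14 (SE) was within the spread between libraries.

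The other leading copies overlapped between the groups. PKM ENSDARG00000099730 measured 651, 435, 614 and 565 CPM in control 1 to 4, and 521, 604 and 530 CPM in wounded 2 to 4 (log2 fold change -0.04 ± 0.14, SE). The dehydrogenase gapdhs measured 420, 434, 389 and 373 CPM in control 1 to 4, and 462, 443 and 372 CPM in wounded 2 to 4 (log2 fold change 0.07 ± 0.12, SE). The lactate dehydrogenase gene ldhba measured 434, 355, 333 and 384 CPM in control 1 to 4, and 305, 289 and 385 CPM in wounded 2 to 4 (log2 fold change -0.21 ± 0.14, SE). Its partner ldha stayed between 75.3 and 102.9 CPM in these libraries. The isomerase copy TPI1 ENSDARG00000040988 measured 134.8, 133, 116.9 and 126.9 CPM in control 1 to 4, and 129, 105.6 and 103 CPM in wounded 2 to 4 (log2 fold change -0.18 ± 0.13, SE).

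Also overlapping were ALDOA ENSDARG00000011665, at 497, 361, 390.5 and 329 CPM in control 1 to 4 and 401, 359.7 and 350.5 CPM in wounded 2 to 4 (log2 fold change -0.09 ± 0.15, SE), and GPI ENSDARG00000012987 (log2 fold change -0.14 ± 0.12, SE). The minor copy GPI ENSDARG00000103826 overlapped too (log2 fold change -0.40 ± 0.27, SE, adjusted p = 0.459, edgeR). The mutase pgam1a measured 40.6, 22.6, 31.4 and 33.6 CPM in control 1 to 4, and 28.5, 40.7 and 29.7 CPM in wounded 2 to 4 (log2 fold change 0.04 ± 0.21, SE). The kinase pdk4, known for its rise on fasting in mammals, measured 5.06, 3.98, 6.29 and 5.49 CPM in control 1 to 4, and 3.44, 4.01 and 4.06 CPM in wounded 2 to 4, with a log2 fold change of -0.44 ± 0.22 (SE) and an adjusted p of 0.316 in edgeR. None of these values passed the test, and a p above the threshold does not show that the levels were equal.

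**Figure D3:**
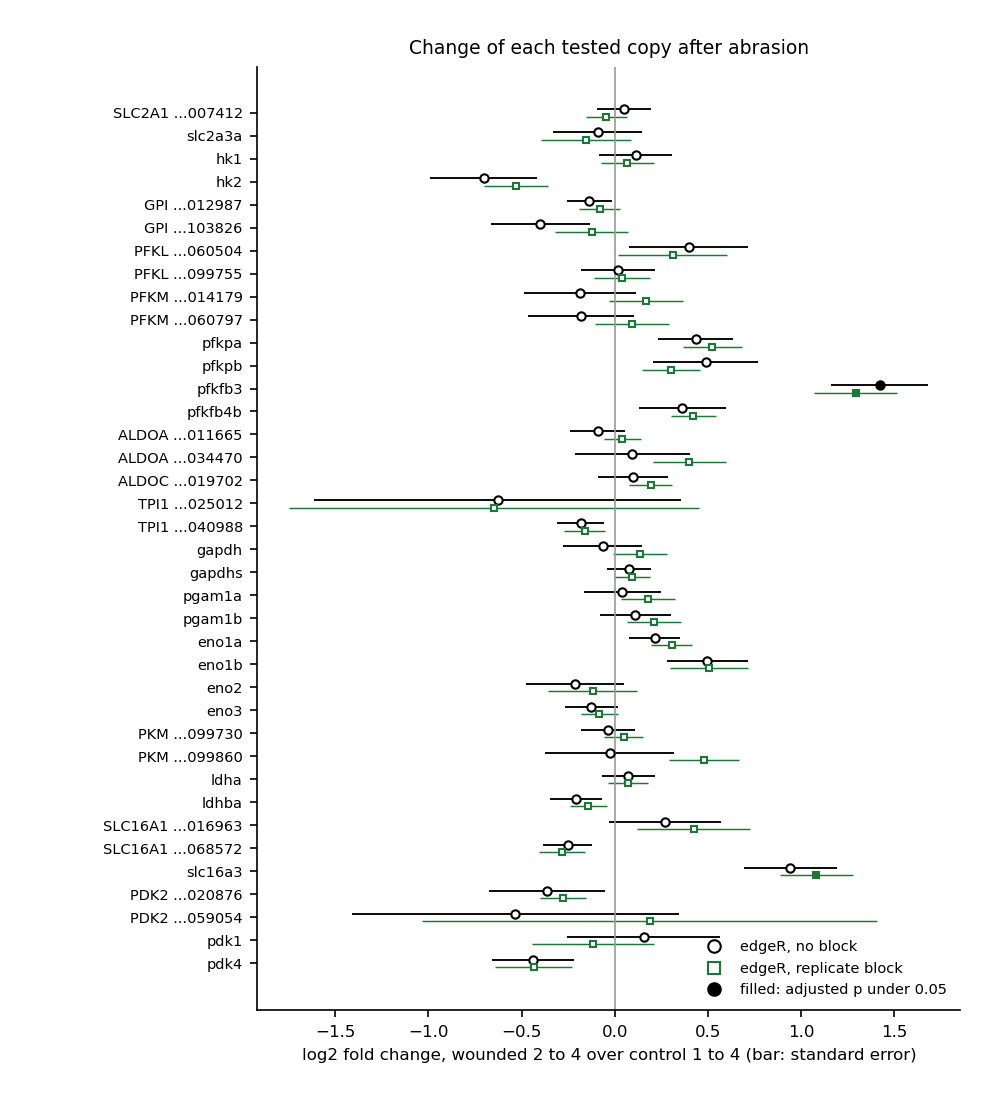
Log2 fold change after abrasion (horizontal axis, with standard errors) for the 36 tested genes and both SLC16A1 copies, in pathway order. Circles are the unblocked edgeR fit, wounded 2 to 4 over control 1 to 4. Squares are the fit with the replicate block, in effect wounded 2 to 4 over control 2 to 4. Filled symbols have an adjusted p under 0.05. Only pfkfb3 is filled in the unblocked fit, at 1.42, and with the block both pfkfb3, at 1.29, and slc16a3, at 1.08, are filled.

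Of the 39 assigned genes, 3 did not pass the filter on low counts in this comparison (SLC2A1 ENSDARG00000001437, gck and ALDOC ENSDARG00000057661), and TPI1 ENSDARG00000025012 passed it at 0.444 CPM or less. Among marker lists, the 4 vascular endothelial genes summed to 67.1 to 83.2 CPM in the controls and 89.4 to 111.6 CPM in wounded 2 to 4, and the 5 erythrocyte genes to 22.3 to 43.9 and 42.0 to 66.2 CPM. In the unblocked edgeR fit none of the tested genes of these 2 lists was called. In each list 2 of 4 had an unadjusted p under 0.05, against 18.5% of all genes. With the replicate block, edgeR called the erythrocyte genes hbaa1 and hbba1 as higher, and DESeq2 called hbba1 without the block and both with it. Other marker lists also held calls. With the replicate block, the muscle gene acta1a and the keratocyte gene ogna were higher in edgeR (adjusted p = 0.00434 and 0.0378) and in DESeq2. With all 8 libraries and the block, edgeR still called acta1a. It then called no erythrocyte gene (lowest adjusted p 0.0523) and no keratocyte gene (0.0532). In the 7 libraries both PAX6 copies of the epithelial list were lower in edgeR and DESeq2, with and without the block. With all 8 libraries edgeR called only PAX6 ENSDARG00000103379 of them, with and without the block. In DESeq2 with the block, GNAT2 of the retinal list was lower. The part of these cell types in the values of pfkfb3 and slc16a3 was not tested.

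Several minor copies were, like the skeletal muscle markers, highest in control 1, and they are named after their values were seen. The summed markers were 1471, 664.6, 1028 and 631.3 CPM in control 1 to 4, and 1045 CPM in wounded 1. The minor pyruvate kinase copy PKM ENSDARG00000099860 measured 34.2, 12.8, 16.2 and 10.2 CPM in control 1 to 4, and 17.9, 16.1 and 20.02 CPM in wounded 2 to 4. Control 1 was highest and control 4 lowest for both. PFKM ENSDARG00000014179 and PFKM ENSDARG00000060797, the muscle-type phosphofructokinases, measured 11.2 and 13.9 CPM in control 1 against 4.57 and 6.82 CPM in control 4. The minor copies GPI ENSDARG00000103826 and ALDOA ENSDARG00000034470 measured 10.03 and 32.4 CPM in control 1 against 5.19 and 12.9 CPM in control 4. These 5 copies were 1.93 to 3.34 times as high in control 1 as in control 4, and the summed muscle markers 2.33 times. The leading copies PKM ENSDARG00000099730 and GPI ENSDARG00000012987 differed between these libraries by factors of 1.15 and 1.19, eno3 by 1.31, pfkpa by 1.44 and ALDOA ENSDARG00000011665 by 1.51. Among the controls, these leading copies were also highest in control 1, except eno3, which was highest in control 2. The 39 assigned genes together summed to 4010 CPM in control 1 and 3103 to 3618 CPM in control 2 to 4, so that a peak in control 1 was not particular to the minor copies. In the wounded libraries the likeness of the minor copies to the muscle markers was not general. GPI ENSDARG00000103826 was at its lowest in wounded 4, where the markers were highest among wounded 2 to 4, and ALDOA ENSDARG00000034470 was at 1.21 times its control mean in wounded 3, where the markers were at 0.855 times theirs. Whether muscle in the dissected tissue gave the reads of the minor copies was not tested.

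The kinase copy PDK2 ENSDARG00000059054 varied widely within both conditions. It measured 117, 27.1, 173 and 9.69 CPM in control 1 to 4, and 33.3, 14.2 and 122 CPM in wounded 2 to 4, with 14.0 CPM in wounded 1. Control 3 was 17.9-fold above control 4. High and low libraries occurred in both conditions and at both ages, and the log2 fold change after abrasion was -0.53 ± 0.88 (SE, adjusted p = 0.791, edgeR). The second copy, PDK2 ENSDARG00000020876, stayed between 15.8 and 42.0 CPM in all 8 libraries.

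**Figure D4:**
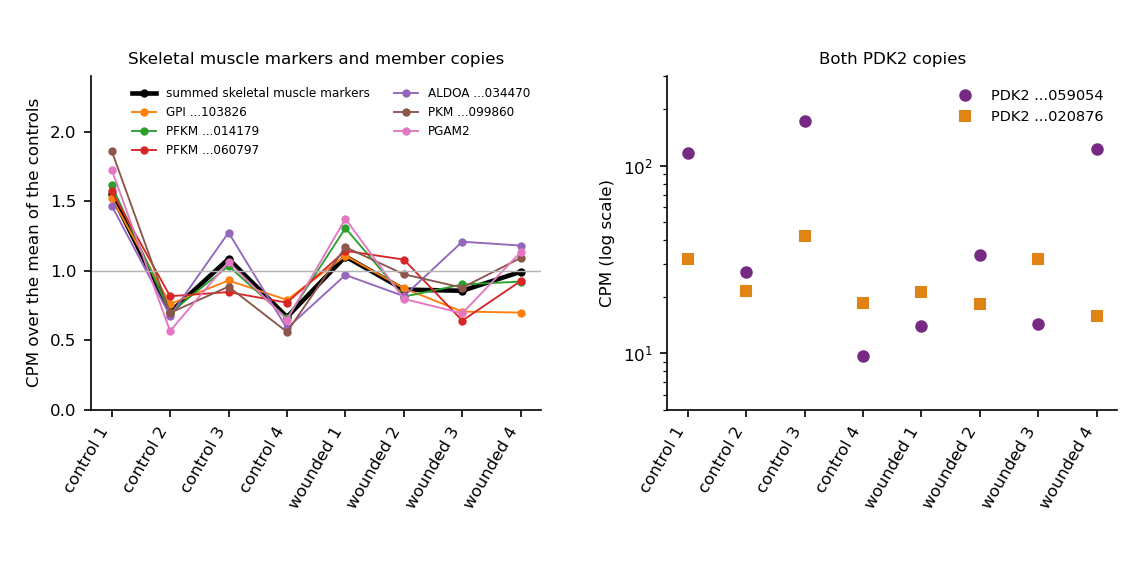
Left, levels of 5 minor copies, PGAM2 and the summed skeletal muscle markers in each library, each divided by its own mean over the controls; right, CPM (log axis) of both PDK2 copies in each library. The minor copies and the muscle markers are highest in control 1, and PDK2 ENSDARG00000059054 runs from 9.69 CPM in control 4 to 173 CPM in control 3.

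Age was the other difference between the fish. Older fish (180 and 183 days, control 1, control 4 and wounded 4) were compared with younger fish (145 and 148 days, the other 4 of the 7 libraries) with wounding as a term. Of 38 genes tested, 0 were called in edgeR, against 0.243% of all 20948 genes, and 3 had an unadjusted p under 0.05, against 8.51% of all genes. In DESeq2, 1 was called, against 1.23% of all genes. The summed keratocyte markers were 8457 to 8938 CPM in the 3 older libraries and 12970 to 16390 CPM in the 4 younger ones. Of these 7 markers, edgeR called 2 as lower in older fish (COL1A2 and col1a1a), and 4 had an unadjusted p under 0.05. In the controls alone 0 were called. The part of keratocytes in the age values was not tested.

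The lowest p belonged to pfkpb, at 5.85, 7.90 and 8.77 CPM in control 1, control 4 and wounded 4, and 12.6, 10.9, 15.3 and 15.2 CPM in control 2, control 3, wounded 2 and wounded 3. All older libraries were below all younger ones. The log2 difference was -0.78, with an unadjusted p of 0.00117 and an adjusted p of 0.176 in edgeR (0.0159 in DESeq2). The older and the younger libraries each came from 2 tanks, and this fit treats libraries of 1 tank as independent. In the controls alone, with 1 library a tank, the log2 difference was -0.77, with an unadjusted p of 0.0215 and an adjusted p of 0.9999 in edgeR. Wounded 1, from fish of 180 days, measured 10.3 CPM.

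The lactate dehydrogenase gene ldhba was above all younger libraries in the older ones, at 434, 384 and 385 CPM against 289 to 355 CPM, with a log2 difference of 0.30 and an adjusted p of 0.473 in edgeR. Wounded 1 measured 267 CPM, below every younger library. The mutase pgam1b measured 30.7, 24.7 and 33.2 CPM in the older and 20.5 to 25.9 CPM in the younger libraries, with overlap (log2 difference 0.41, adjusted p = 0.478, edgeR). Older and younger libraries did not overlap for 3 of the 38 genes tested, against 7.06% of all genes. Beside pfkpb and ldhba this was SLC2A1 ENSDARG00000001437, which was near 0, with means of 0.149 CPM in the older and 0.318 CPM in the younger libraries. Wounded 1, from older fish, measured 1.998 CPM for it, above every younger library.

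**Figure D5:**
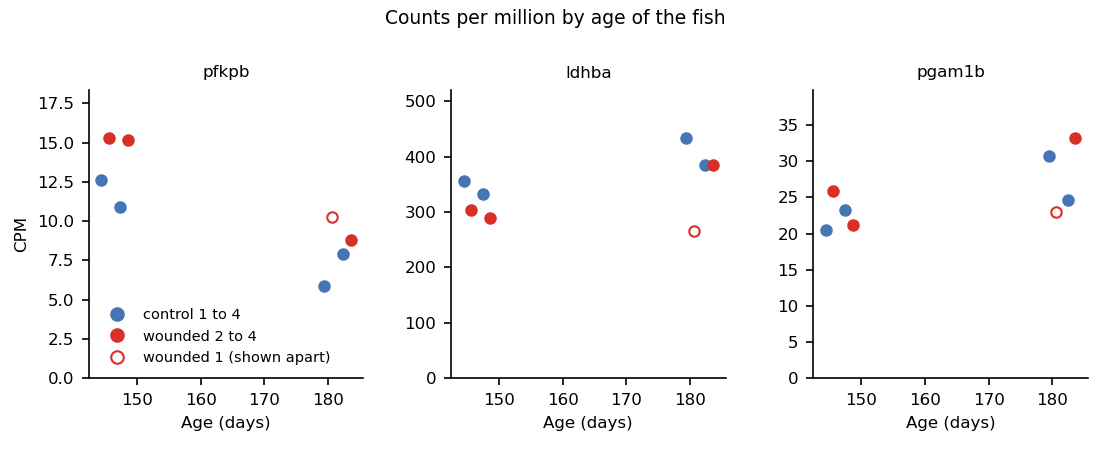
CPM (vertical axis, starting at 0) of pfkpb, ldhba and pgam1b against the age of the fish in days; blue points are controls, filled red points wounded 2 to 4 and the open red point wounded 1. The older libraries lie below the younger ones for pfkpb and above them for ldhba when wounded 1 is set apart.

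Whether the change after abrasion differed with age was tested over all 8 libraries, with 2 libraries for each age and condition. Of 37 genes tested, 0 were called in edgeR (0% of all 20018 genes), and 0 had an unadjusted p under 0.05, against 1.95% of all genes. DESeq2 called 0 of all genes tested. For pfkfb3 the interaction was 0.01 on the log2 scale, and for slc16a3 it was -0.82 with an unadjusted p of 0.084 in edgeR. In simulated counts this test found 29% of 4-fold and 0% of 2-fold differences, so that differences of such size could have been missed.

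Other genes of glucose metabolism were read from 12 lists. In the abrasion comparison, edgeR called no gene in 10 of them, among them 12 further glucose transporters tested, 12 other glycolysis paralogs, 14 genes of the pyruvate dehydrogenase complex and its control, 7 of the pentose phosphate pathway and 21 of the citrate cycle. Of the 128 genes tested in those 10 lists, 17 had an unadjusted p under 0.05, against 18.5% of all genes. DESeq2 called 8 of the 103 it tested, against 9.29% of all genes, and edgeR with the replicate block called 5, against 5.22%. These shares were no higher than those over all genes. The calls were 2 of 20 tested hypoxia-induced genes outside glycolysis and 1 of 12 regulators of glycolysis, all higher, against 0.734% of all genes called higher. Because the lists were chosen with earlier results of these data known, such shares cannot test whether these kinds of genes responded more than others. The transketolase gene TKT, known as an abundant protein of the mammalian cornea and named after its values were seen, had 5442 to 7716 CPM in the controls and 5078 to 6890 CPM in wounded 2 to 4.

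Hypoxia-inducible factors are known to raise glycolysis genes together with other targets. Whether they acted in these corneas was not tested. The insulin-like growth factor binding protein gene igfbp1a measured 57.4, 66.3, 44.2 and 63.9 CPM in control 1 to 4, and 204, 133 and 93.7 CPM in wounded 2 to 4, with 74.6 in wounded 1. Its log2 fold change was 1.31 ± 0.24 (SE, adjusted p = 0.0343, edgeR). The call was lost with all 8 libraries (adjusted p = 0.0651), and without control 1 (0.096), control 3 (0.105), wounded 2 (0.062) or wounded 3 (0.125). Leaving out each of those libraries also lowered the number of calls over all genes. Of the 16 alternatives for igfbp1a, 11 passed.

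The leptin gene lepb measured 0.939, 0.410, 0.0493 and 0.115 CPM in control 1 to 4, and 5.11, 7.04 and 2.63 CPM in wounded 2 to 4, with 8.42 in wounded 1 (log2 fold change 3.70 ± 0.70, SE, adjusted p = 0.0369, edgeR). It no longer passed without control 3 (0.0871) or wounded 2 (0.0688), wounded 3 (0.149) or wounded 4 (0.0581). Leaving out each of those libraries also lowered the number of calls over all genes. Of the 15 alternatives for lepb, 11 passed. The median log2 fold change of the 20 hypoxia-induced genes was 0.34, with 16 above 0. Over all genes tested the median was 0.01, with 51.1% above 0. With the replicate block in 7 libraries 6 of the 20 were higher, against 2.71% of all genes, and adma, igfbp1b, ndrg1a and p4ha2 joined the calls. Fewer passed with all 8 libraries in edgeR. With the block these were 3 of 20 (igfbp1a, lepb and ndrg1a), against 456 higher of 18602 genes. Without the block only lepb passed, against 147 higher.

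The regulator mycb, a Myc factor known to drive glycolysis genes in dividing cells, measured 57.5, 64.3, 39.4 and 100.4 CPM in control 1 to 4, and 183, 265 and 194 CPM in wounded 2 to 4, with 165 in wounded 1. All wounded libraries lay above all controls. The log2 fold change was 1.71 ± 0.27 (SE, adjusted p = 0.0215, edgeR). The call was lost without control 1 (adjusted p = 0.0761), control 3 (0.0524), wounded 3 (0.112) or wounded 4 (0.0511). Leaving out each of those libraries also lowered the number of calls over all genes. Of the 16 alternatives for mycb, 12 passed.

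The 5 genes of the other 10 lists that were called with the replicate block are named after their values were seen. Among the other fructose 2,6-bisphosphate enzymes, pfkfb4a was lower, at 26.3, 18.2, 23.5 and 12.9 CPM in control 1 to 4 and 13.3, 11.02 and 6.21 CPM in wounded 2 to 4. Its log2 fold change was -0.86 (adjusted p = 0.0257, edgeR with block), and -0.99 without the block (adjusted p = 0.114). Of the glycogen genes, PPP1R3B, which brings a phosphatase to glycogen, was lower and phka1a, a subunit of phosphorylase kinase, was higher (adjusted p = 0.0137 and 0.047, edgeR with block). The gluconeogenesis gene pck1 was higher (log2 fold change 1.5, adjusted p = 0.0165, edgeR with block). Without the block edgeR called no gene of its list (lowest adjusted p 0.16, log2 fold changes up to 0.81). Nor did it with all 8 libraries and the block (lowest adjusted p 0.123). The gene vhl, whose product marks hypoxia-inducible factors for breakdown, was lower (adjusted p = 0.0496, edgeR with block).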

How the data were processed

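RNA of 8 libraries was made into directional polyadenylated libraries and read as single ends. The authors aligned the reads with STAR 2.6.0c (GRCz11) and assigned them to Ensembl release 97 genes with featureCounts. The deposited table holds unnormalized whole-number counts. Whether counting used strand is not given in the sources used here, so overlapping antisense genes and near-identical copies are uncertain.

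Counts were tested in R 4.3.3 with edgeR 4.0.16 (filterByExpr, TMM, quasi-likelihood test, Benjamini-Hochberg adjustment over all genes tested, adjusted p 0.05) and, as an alternative, DESeq2 1.42.0. Age was tested with wounding as a term and the interaction over all 8 libraries. The standard errors given with edgeR values are approximate: each is the size of the log2 fold change divided by the square root of its F statistic. Tested on simulated data, the abrasion fit found 38% of 2-fold and 92% of 4-fold changes among 18935 genes. In each simulation 100 genes were changed by each of these sizes, all above a minimum mean level, and no tank effect was set. Recovery in the real data may therefore differ. Each library is a separate pool of fish. Replicate numbers mark a shared tank, per the design text, and deviations of same-numbered libraries correlated at 0.196, 0.316, 0.267 and 0.323.

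Genes were matched by unique symbol (13), through the normalized counts of the named genes in a supplementary table (5), by elimination (3) or as pairs sharing a symbol (18). Transcript lengths, sequences and a genome were not used here, so the planned scaling by length was replaced by shares of reads, and no sequence is printed. Values are given per library for called genes, the leading copy of each step and up to 6 further genes of smallest p, and from each other list for called genes (at most 4). Both GPI copies and eno1a are exceptions, given as ranges or for some libraries only. The members and lists were chosen with earlier results of these data known. Plots were drawn with matplotlib 3.10.9.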

Additional observations from a re-analysis of the deposited data

Results flagged for a closer look

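In 76 groups of 4 libraries (38 copies, control and wounded with wounded 1 included), 4 groups had a library far from the others by Dixon's ratio of gap to range, above its 95% critical value. Chance gives about 1 in 20 groups, which is near this number.

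PFKM ENSDARG00000060797, a muscle-type phosphofructokinase, stood at 13.9 CPM in control 1 against 6.82 to 7.50 CPM in the other controls (ratio 0.905). ALDOC ENSDARG00000019702 stood at 123.7 CPM in control 2 against 198 to 210 CPM in the other controls (ratio 0.868). TPI1 ENSDARG00000040988 stood at 129 CPM in wounded 2 against 103 to 107 CPM in the other wounded libraries (ratio 0.863). SLC16A1 ENSDARG00000016963 stood at 2.88 CPM in wounded 2 against 2.05 to 2.09 CPM in the other wounded libraries (ratio 0.951).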

How the results depend on the processing

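After abrasion 1 gene was called, and the count was 2 with the replicate block in 7 libraries and with all 8 libraries and the replicate block, 2 with DESeq2 and 2 with no filter on low counts. It was 5 with DESeq2 and the replicate block, an alternative chosen after seeing the data, which added hk2 (lower), pfkpa and pfkfb4b to pfkfb3 and slc16a3. With 1 library left out it ranged from 0 to 2. Over all genes, calls in those fits ran from 10 higher and 7 lower of 19484 (without wounded 3) to 264 higher and 192 lower of 18663 (without control 2). By age the count was 0, and it was 1 with DESeq2, 2 with no filter and 0 with each library left out. For the interaction it was 0, and 1 with no filter. The cause was not tested. The 11 steps led by 1 copy in all controls ranged from 11 to 12 with a control left out. Over all genes the block raised the calls from 259 to 989 and DESeq2 gave 1319. With no filter, 276 genes were higher and 204 lower of 25318 after abrasion. By age these were 286 and 278 of 25318, and for the interaction 25 and 12 of 25573. Over 367 alternative values for 23 named genes after abrasion, 341 stayed on their side of the threshold, 17 lost it and 9 gained it, and 18 values of uncalled genes changed sign. In edgeR the replicate block changed the call of slc16a3 among these 23 genes, and in DESeq2 it changed those of hk2, pfkpa and pfkfb4b. It also added calls among genes of the other lists, pfkfb4a and pck1 among them. Scaling by transcript length was not run, and size factors do not alter shares within a library. With 3 or 4 libraries a group, the median standard error of 0.22 on the log2 scale limits what could be detected.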
